A study of Mus musculus with 3 samples.

Results

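The granule proteases of mast cells were followed here through 8 genes, *Cma1*, *Mcpt1*, *Mcpt2*, *Mcpt4*, *Mcpt8*, *Tpsb2*, *Tpsab1* and *Cpa3*. They were chosen by name, with the older names *Mcpt5*, *Mcpt6* and *Mcpt7* read as *Cma1*, *Tpsb2* and *Tpsab1*, and every probe that carries such a name was used. This gave 10 probes, 2 each for *Cma1* and *Mcpt4* and 1 for each other gene, among 41174 probes with 27951 gene names. All 10 had a value on each array, as did 41157 probes in all. The cells were mast cell progenitors (MCps) from the marrow of 3 wild type (WT) and 3 *p85α−/−* mice, which lack a regulatory subunit of PI3K. Mononuclear marrow cells of low density were kept in IL-3 (10 ng/mL) for 7 days, cells with KIT and the IgE receptor were sorted, and SCF, which binds KIT, was then given to all cultures (100 ng/mL for 48 hours). No culture was left without SCF, and the age and strain of the mice are not given in the sources used here for these cultures. Because few cells were sorted, their cDNA had been PCR-amplified before it was labeled.

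Each of the 3 arrays carried 1 WT culture in Cy3 and 1 *p85α−/−* culture in Cy5. No array had the dyes swapped, so dye and genotype cannot be told apart. All values below are normalized intensities on the log2 scale, or log2 ratios of *p85α−/−* over WT within an array, where 1 means a doubling. The median spot signal before normalization was 71.5 to 141.2 for WT and 206.6 to 517.3 for *p85α−/−*, with 69.4% to 93.8% of spots well above background. The highest values, 517.3 and 93.8%, were those of *p85α−/−* replicate 2. The other *p85α−/−* cultures had 210.9 and 77.6% (replicate 1) and 206.6 and 77.3% (replicate 3). Log2 ratios were nearly unrelated between arrays, with Pearson's r across all probes between −0.03 and 0.17. *Pik3r1*, the gene of p85α and of shorter subunits, had 4 probes with mean log2 ratios from −0.58 to 0.59 and limma's adjusted p of at least 0.908. Directions below therefore follow the labels of the cultures, since *Pik3r1* did not show which channel lacked p85α. In such bulk samples, fewer cells of a type and less RNA per cell cannot be told apart.

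Mast cells store neutral proteases in secretory granules, bound to the heparin chains of serglycin, and release them when the IgE receptor is crosslinked. Chymases cleave after aromatic residues, tryptases after lysine or arginine, and carboxypeptidase A3 trims residues from the C-terminal end of peptides. In mice, *Cma1* (mMCP-5, a chymase by sequence with elastase activity), *Mcpt4* (mMCP-4), *Tpsb2* (mMCP-6) and *Cpa3* are typical of connective tissue mast cells, whereas *Mcpt1* and *Mcpt2* are typical of mucosal mast cells. *Mcpt8* is best known as a marker of basophils. *Tpsab1* (mMCP-7) is annotated as a transcribed pseudogene in the RefSeq table of the reference mouse strain.

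The genes lie in 3 places of the genome. In the RefSeq order of chromosome 14, *Cma1* is followed by *Mcpt1*, *Mcpt2*, *Mcpt4* and *Mcpt8*, with other protease genes between them and with *Ctsg* and granzyme genes after them. *Tpsab1*, *Tpsb2* and *Tpsg1* are neighbors on chromosome 17, and *Cpa3* is on chromosome 3. RefSeq promoters (GRCm38.p6) were at hand for 5 of the 8 genes. The 250 bases before the start are given for *Cma1*, *Mcpt8* and *Cpa3* because the brightest probe of these genes had the higher signal in *p85α−/−* on every array, and for *Mcpt1* and *Mcpt4* as chromosome 14 neighbors whose brightest probe did not. Capitals mark GATAA, the core read by GATA factors, or TATAAA, the TATA box, on either strand.
*Cma1* (chr14:55944676-55944925, minus strand): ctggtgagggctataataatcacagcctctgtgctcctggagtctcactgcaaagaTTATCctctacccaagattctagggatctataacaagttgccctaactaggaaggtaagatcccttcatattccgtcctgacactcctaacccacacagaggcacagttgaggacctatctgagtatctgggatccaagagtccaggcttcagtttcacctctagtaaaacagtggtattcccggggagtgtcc
*Mcpt8* (chr14:56085198-56085447, minus strand): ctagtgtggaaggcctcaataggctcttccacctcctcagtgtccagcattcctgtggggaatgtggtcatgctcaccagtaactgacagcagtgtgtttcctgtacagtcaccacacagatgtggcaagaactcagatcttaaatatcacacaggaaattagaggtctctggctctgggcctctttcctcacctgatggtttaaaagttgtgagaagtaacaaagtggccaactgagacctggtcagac
*Cpa3* (chr3:20242182-20242431, minus strand): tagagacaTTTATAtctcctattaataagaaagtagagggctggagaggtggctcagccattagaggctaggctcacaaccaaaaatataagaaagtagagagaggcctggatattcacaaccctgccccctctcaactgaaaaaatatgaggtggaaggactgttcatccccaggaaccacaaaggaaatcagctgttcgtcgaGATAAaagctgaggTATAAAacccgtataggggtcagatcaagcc
*Mcpt1* (chr14:56017714-56017963, plus strand): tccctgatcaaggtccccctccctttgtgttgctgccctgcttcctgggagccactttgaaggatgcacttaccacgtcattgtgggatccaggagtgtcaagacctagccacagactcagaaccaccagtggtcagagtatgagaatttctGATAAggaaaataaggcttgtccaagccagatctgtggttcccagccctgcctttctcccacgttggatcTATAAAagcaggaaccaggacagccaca
*Mcpt4* (chr14:56062311-56062560, minus strand): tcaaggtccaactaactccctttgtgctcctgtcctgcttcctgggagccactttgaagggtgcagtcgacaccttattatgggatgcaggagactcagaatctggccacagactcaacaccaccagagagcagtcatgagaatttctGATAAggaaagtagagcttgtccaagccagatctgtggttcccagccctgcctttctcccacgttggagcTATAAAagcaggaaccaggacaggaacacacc
GATAA was searched on both strands, as were TATAAA and a pair of E-boxes that MITF is known to read, CATGTG and the palindrome CACGTG. None of the 4 motifs overlapped another. GATAA was found in 4 of the 5 sequences, with its first base 45 bases before the start in *Cpa3*, 98 in *Mcpt1*, 102 in *Mcpt4* and 194, on the opposite strand, in *Cma1*. Over 32851 promoters of this length, 22.6% held such a match. The TATA box began 31 bases before the start in *Cpa3*, 28 in *Mcpt1* and 32 in *Mcpt4*, and also lay 242 bases before the start of *Cpa3* on the opposite strand, against 12.4% of all promoters. CATGTG (12.3% of all promoters) and CACGTG (6.02%) were in none of the 5 windows, and *Mcpt8* held none of the 4 motifs. The promoters of *Mcpt1* and *Mcpt4* were 81.5% identical in alignment, and the other pairs were 45.2% to 51.5% identical. These matches describe letters in a window and were not set against the arrays by any test.

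Among the 8 genes, each represented by its brightest probe, *Cma1*, *Cpa3*, *Mcpt8*, *Tpsb2* and *Tpsab1* had a mean log2 ratio above 0, and *Mcpt1*, *Mcpt2* and *Mcpt4* one below 0. None passed limma's test at an adjusted p under 0.05, and neither did any of the 41157 probes (0%), of which the lowest adjusted p was 0.763. A change of at least 1.5-fold and an unadjusted p under 0.05 are the thresholds of the paper, and they are called the 2 criteria below, with limma's p. *Cma1* met them in the higher direction and none of the 8 genes did in the lower direction, against 2.78% of all probes higher and 1.66% lower. With the p of the methods' t-test, unpaired or paired, 0 of the 8 genes met them. *Cma1*, *Mcpt8* and *Cpa3*, 3 of 8 genes, were higher in *p85α−/−* on every array, as were 12.5% of all probes. With a gene's probes averaged, or with the software's processed signals, 2 of the 8 were. No gene was lower on every array, as 13.3% of all probes were. The levels of the 2 genotypes did not overlap for 1 gene, *Cma1*, and for 10.5% of all probes. The median log2 ratio of the 8 genes was 0.60, with medians of 0.49, 0.83 and 0.090 on arrays 1, 2 and 3, beside a median of −0.05 over all probes. When the ratios of an array were only centred on the array's median, without quantile normalization, the median of the 8 was 1.07, and without replicate 3 it was 0.23.

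**Figure D1:**
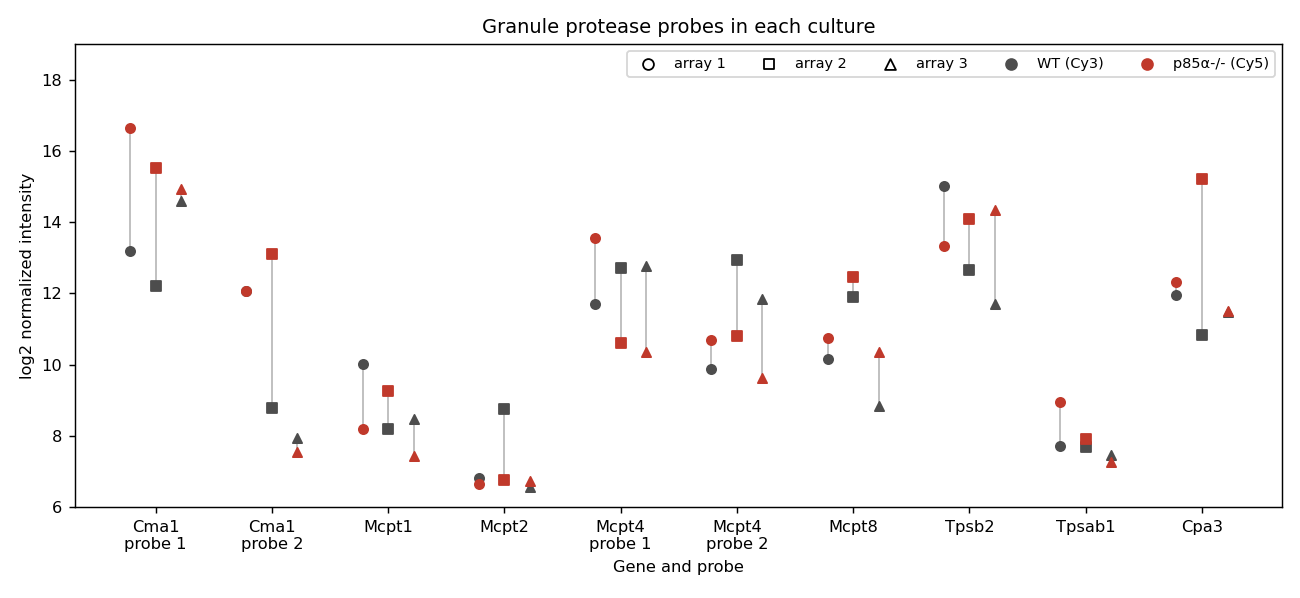
Normalized log2 intensity (y axis) of each probe (x axis) in the 3 WT (gray, Cy3) and 3 *p85α−/−* (red, Cy5) cultures, with a line joining the 2 channels of an array and a marker shape for each array. Only the brighter *Cma1* probe has every red point above every gray one, and most other probes change order from array to array.

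*Cma1*, known as mMCP-5, had the highest mean log2 ratio of the 8 genes. Its brighter probe had log2 intensities of 13.20, 12.21 and 14.59 in WT replicates 1 to 3 and 16.65, 15.52 and 14.93 in *p85α−/−* replicates 1 to 3. Every *p85α−/−* culture was above every WT culture, although the nearest 2 cultures, those of array 3, were only 0.34 apart. The log2 ratios were thus 3.45, 3.31 and 0.34, with a mean of 2.37 ± 1.76 (SD, n = 3), a 5.17-fold higher level in *p85α−/−*. Limma's 95% interval ran from 0.15 to 4.59 (unadjusted p = 0.042, adjusted p = 0.908, limma). Before normalization the spot read 2855, 2543 and 10180 in WT and 211896, 84118 and 81216 in *p85α−/−*, and it was not saturated on any array.

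The dimmer *Cma1* probe did not repeat this pattern. Its log2 intensities were 12.08, 8.78 and 7.94 in WT and 12.07, 13.10 and 7.54 in *p85α−/−*. The groups overlapped, and array 2 alone, with a log2 ratio of 4.32, set the probe's mean of 1.30 ± 2.62 (adjusted p = 0.908 by limma's test). On arrays 1 and 3 its log2 ratios were −0.01 and −0.40, and without array 2 their mean was −0.21. Averaged over both probes, *Cma1* had a mean log2 ratio of 1.84 and no longer met both criteria. The brighter probe also failed them without replicate 1 (1.83) and without replicate 2 (1.90), with loess within arrays followed by Aquantile between them (1.92), with the deposited table (0.55) and by the methods' t-test in both forms.

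*Mcpt4*, the chymase mMCP-4, was measured by 2 probes that gave the same picture. The brighter probe had log2 intensities of 11.71, 12.71 and 12.76 in WT and 13.55, 10.60 and 10.36 in *p85α−/−*. Replicate 1 was thus higher in *p85α−/−* (log2 ratio 1.85) and replicates 2 and 3 were lower (−2.11 and −2.41). The other probe gave log2 ratios of 0.83, −2.16 and −2.22, with the same sign on each array. The mean log2 ratios were −0.89 ± 2.38 and −1.18 ± 1.74, both smaller than the spread between arrays (adjusted p = 0.917 and 0.908 by limma's test). Without replicate 1 both probes met both criteria, at −2.26 and −2.19. With median centring the brighter probe turned to 0.27 (0.18 above the median of all probes under that scaling, against −0.84 relative to it as reported), while the other stayed below 0 at −0.41.

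*Mcpt1*, the chymase of mucosal mast cells, had log2 intensities of 10.03, 8.19 and 8.49 in WT and 8.21, 9.27 and 7.44 in *p85α−/−*. It was lower on arrays 1 and 3 and higher on array 2, with a mean log2 ratio of −0.60 ± 1.51 (adjusted p = 0.916 by limma's test). Leaving out replicate 1 took the mean to 0.014, and leaving out replicate 2 took it to −1.44, which met both criteria. *Mcpt2*, which lies beside *Mcpt1*, was near the background, with both channels well above it only on array 2. There the WT culture stood at 8.77 and the *p85α−/−* culture at 6.77, against 6.84 and 6.56 in WT and 6.65 and 6.73 in *p85α−/−* on arrays 1 and 3. Its mean log2 ratio of −0.67 ± 1.16 (adjusted p = 0.908 by limma's test) therefore came from array 2, and without that array the mean was −0.01. The other 9 probes were well above background in all 6 channels.

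*Tpsb2*, the tryptase mMCP-6, was well above background in every culture, at 15.01, 12.67 and 11.72 in WT and 13.33, 14.09 and 14.35 in *p85α−/−*. It was lower in *p85α−/−* on array 1 and higher on arrays 2 and 3, and the WT cultures spanned the range of the *p85α−/−* cultures. The mean log2 ratio was 0.79 ± 2.22, with an interval from −1.97 to 3.56 (adjusted p = 0.921, limma). The mean was −0.13 without replicate 3, and 2.03, past both criteria, without replicate 1. *Tpsab1*, the tryptase mMCP-7, stood at 7.72, 7.70 and 7.47 in WT and 8.95, 7.92 and 7.28 in *p85α−/−*. The mean log2 ratio of *Tpsab1* was 0.42 ± 0.73 (adjusted p = 0.908), of which array 1 gave the most, and without replicate 1 the mean was 0.013. The 2 tryptases did not vary together over the 6 channels (r = −0.01, a description in which both dyes and all arrays are pooled).

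*Cpa3*, carboxypeptidase A3, had log2 intensities of 11.95, 10.84 and 11.49 in WT and 12.33, 15.21 and 11.50 in *p85α−/−*. A single culture, *p85α−/−* replicate 2, stood far above the others, and its array gave a log2 ratio of 4.37 beside 0.39 and 0.008 on arrays 1 and 3. That culture also had the highest median signal over all spots before normalization (517.3). The mean of 1.59 ± 2.42 (3.01-fold, adjusted p = 0.908 by limma's test) was 0.20 without that replicate. The sign was the same on every array, but on array 3 the channels were all but equal. *Mcpt8*, a basophil protease, had the smallest SD of the 10 probes' log2 ratios. Its levels were 10.17, 11.89 and 8.85 in WT and 10.75, 12.47 and 10.36 in *p85α−/−*. The log2 ratios of *Mcpt8*, 0.59, 0.58 and 1.51, gave a mean of 0.89 ± 0.53 (1.86-fold), with an interval from −0.02 to 1.81 (unadjusted p = 0.053, adjusted p = 0.908, limma). The groups overlapped, and within each genotype the 3 cultures spanned more than this mean. *Mcpt8* and *Cpa3* met both criteria under 1 alternative, median centring (1.54 and 2.80), relative to a median of all probes of 0.09 under that scaling.

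**Figure D2:**
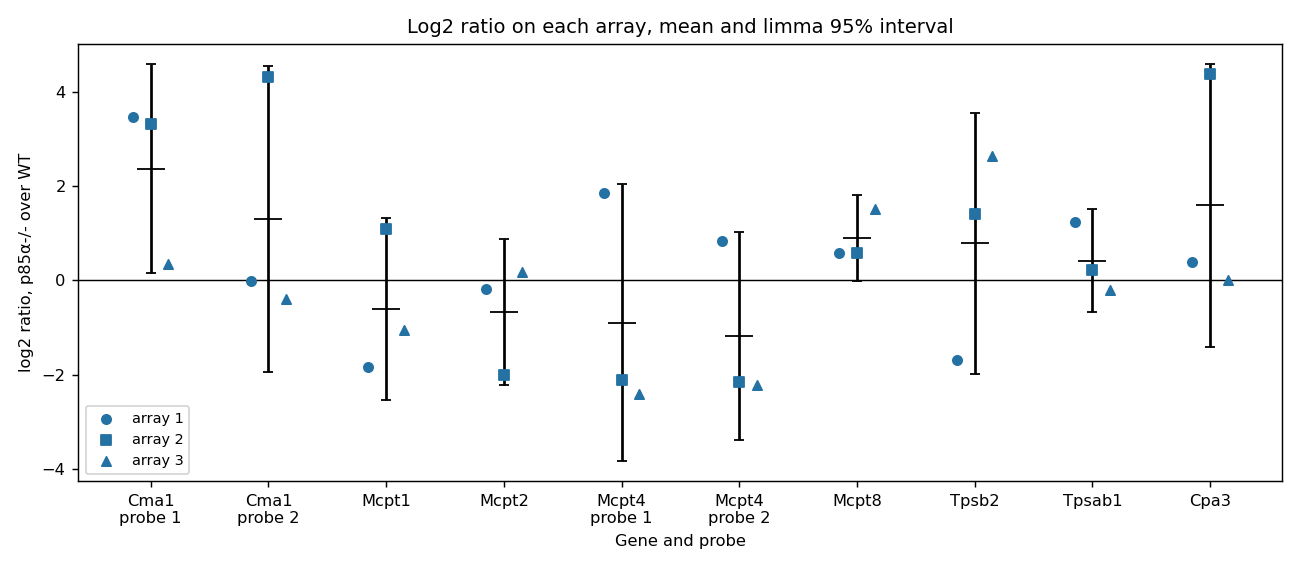
Log2 ratio of *p85α−/−* over WT (y axis) for each probe (x axis), with 1 marker per array and the mean (horizontal tick) with limma's 95% interval (bar). The interval of the brighter *Cma1* probe starts at 0.15 and is the only one that does not reach 0, and array 2 stands apart for *Cpa3* and the dimmer *Cma1* probe.

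The 8 genes did not move as a block across the 6 channels. Pearson's r between pairs, over 6 channels that share arrays and dyes, ran from −0.74 (*Mcpt2* with *Cma1*) to 0.58 (*Mcpt4* with *Tpsab1*), and *Cma1* and *Cpa3* had r = 0.52. Among the probes whose levels most resembled the *Cpa3* pattern were those of *Picalm* (r = 0.996), *Syt6* (0.991), *Nek5* (0.987) and *Metapl1* (0.985), out of 25568 probes well above background in all 6 channels, of which 360 had r of at least 0.9. As the choice by likeness to *Cpa3* fixes, each of these 4 had its highest log2 ratio on array 2, for example 3.18 for *Picalm* beside 0.26 and −0.12 on arrays 1 and 3.

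The other proteases of mast cell, lymphocyte and neutrophil granules and of lysosomes were read from a list of 17 genes, 14 of which had a probe. Of these, 8 had a mean log2 ratio above 0 and 6 below, 5 had a higher and 3 a lower signal in *p85α−/−* on each of the arrays (12.5% and 13.3% of all probes), and the median was 0.37. *Ctsg*, cathepsin G, is a chymotrypsin-like protease of neutrophil granules and the next protein-coding gene after *Mcpt8* on chromosome 14. *Ctsg* met both criteria in the higher direction, as did 2.78% of all probes. Its log2 intensities lay between 9.41 and 9.79 in the 3 WT cultures and between 11.17 and 11.85 in the 3 *p85α−/−* cultures, so the groups were apart. The same held for 4 of the 14 genes, *Ctsg* included, and for 10.5% of all probes. The mean log2 ratio of *Ctsg* was 1.86 ± 0.51, with adjusted p = 0.823 in limma's fit, and the SD was smaller than for any *Cma1*, *Cpa3* or *Mcpt4* probe. *Gzmc*, granzyme C, a serine protease of cytotoxic lymphocytes, met the criteria in the lower direction, as did 1.66% of all probes (−0.79 ± 0.18, adjusted p = 0.908 by limma's test). *Gzmb*, granzyme B, had the highest mean of the list (2.10 ± 2.79), with a log2 ratio of 5.32 on array 2 and 0.50 and 0.47 on the others. *Tpsg1*, the transmembrane tryptase beside *Tpsb2*, had 2.03 ± 2.68 with 5.12 on array 2 and 0.33 and 0.64 on arrays 1 and 3. *Gzmb* and *Tpsg1* thus had the same outlying array as *Cpa3*. *Prss34*, the basophil protease mMCP-11, went the other way on array 2 (−4.33) and had a mean of −0.14 ± 3.62.

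Genes for the storage of proteases and for the control of their transcription were also listed, 10 in number and all with a probe. *Srgn*, serglycin, the proteoglycan whose chains hold the proteases, had 11.88, 12.11 and 12.32 in WT and 13.72, 13.92 and 13.11 in *p85α−/−*. These levels did not overlap, which held for 1 of the 10 genes and for 10.5% of all probes. The mean log2 ratio of *Srgn* was 1.48 ± 0.60 (adjusted p = 0.908 by limma's test). *Srgn* met both criteria, as did 2.78% of all probes in the higher direction. No gene of the list did with processed signals, with the deposited table or by the paired form of the methods' t-test. With a replicate left out, 1 of the 10 genes met them each time, not necessarily *Srgn*. *Ndst2*, an enzyme of heparin sulfation, had the highest mean of the list (1.63 ± 1.53) but was lower on array 1. *Runx1*, a transcription factor of blood cells, had the lowest mean (−0.60 ± 1.04). Of the 10, 7 were above 0 and 3 below, 3 were higher and 0 lower on every array (12.5% and 13.3% of all probes), and the median was 0.65. *Srgn*, *Hdc*, *Mitf* and *Gata2* also stand in the mast cell list below.

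**Figure D3:**
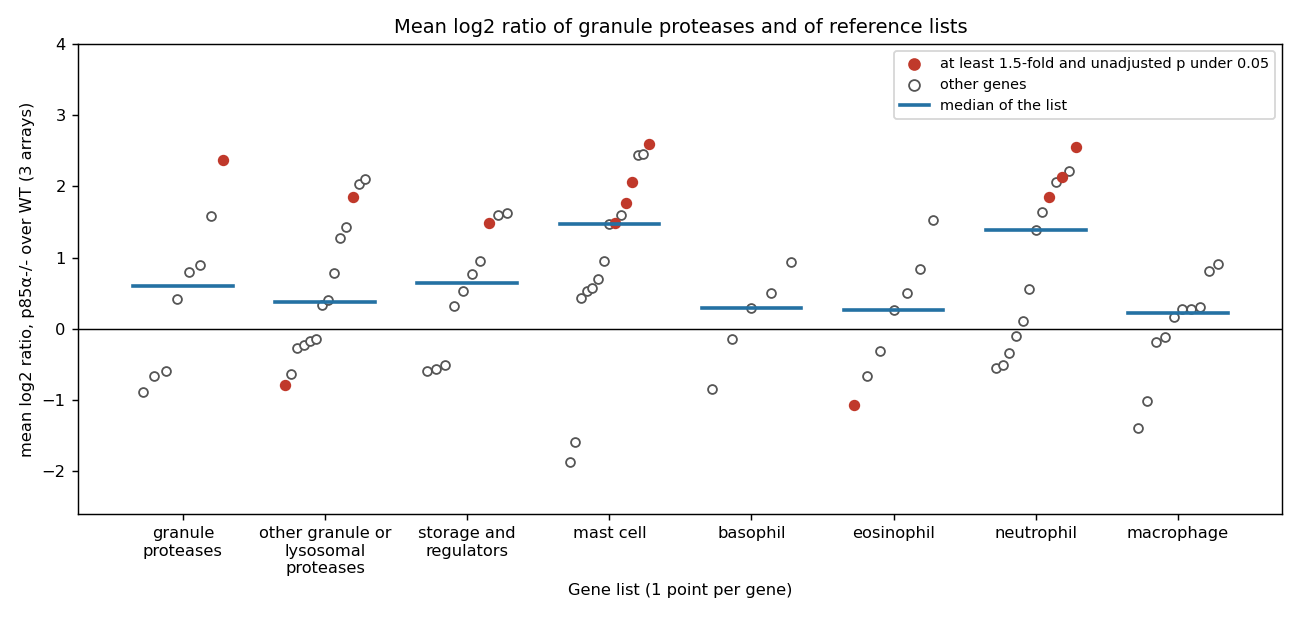
Mean log2 ratio of *p85α−/−* over WT on 3 arrays (y axis) for each gene, by list (x axis), with the list median (blue) and the genes past 1.5-fold and an unadjusted p under 0.05 (red). The granule proteases (median 0.60) spread to both sides of 0, and the mast cell (1.47) and neutrophil (1.39) lists have the highest medians.

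Markers of the labeled cell type were detected in both genotypes. Of all 41157 probes, 25568 were well above background in all 6 channels, the granule protease probes not counted. Of 15 mast cell genes, 13 were well above background on all arrays in each genotype. Their summed normalized intensity (linear scale, not log2) was 25085 to 34266 in WT and 76328 to 119595 in *p85α−/−*, without overlap, beside 24534 to 52171 and 58118 to 132881 for the 8 granule proteases, of which *Cma1* gave the most in each *p85α−/−* culture. In that list 13 genes were above 0 and 2 below, 8 were higher on every array, and 4 met both criteria, *Kit* (the SCF receptor, 2.06 ± 0.56), *Fcer1g* (a chain of the IgE receptor, 1.76 ± 0.82), *Il1rl1* (the IL-33 receptor, 2.59 ± 1.18) and *Srgn*. The lowest was *Rab27b*, a regulator of granule release (−1.87 ± 1.96). Among all probes 12.5% were higher on every array and 2.78% met the criteria in the higher direction. The number of mast cell genes past the criteria was 1 by the paired and 2 by the unpaired form of the methods' t-test, 2 in the deposited table and 8 with median centring, where 2692 of all probes met them, 91.1% of them higher, against 1829 and 62.6% as reported. The cells had been sorted on KIT and the IgE receptor. *Fcer1a*, the chain of that receptor that binds IgE, had log2 ratios of −2.99, 3.32 and 1.39 (mean 0.57 ± 3.24), unlike *Kit* and *Fcer1g*, which were higher on every array. The part of mast cell content in the protease values was not tested.

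Markers of other cells were also detected, beside the 25568 of 41157 probes that were well above background in all 6 channels. All 5 basophil genes were well above background in *p85α−/−* on all arrays and 4 in WT, and their summed intensity overlapped (2389 to 6544 in WT, 2375 to 6899 in *p85α−/−*), as did the levels of *Mcpt8*. *Cd200r3* had the highest (0.93 ± 1.79) and *Itga2* the lowest mean log2 ratio of that list (−0.84 ± 2.11). Of 13 neutrophil genes, 9 were above 0 and 4 below, and the summed intensity was 10900.5 to 21089 in WT and 11677 to 237471 in *p85α−/−*. *Mpo*, myeloperoxidase, gave the most in *p85α−/−* replicates 1 and 3 (15.48 and 17.59), but in replicate 2 it stood at 10.68, below *Ctsg* at 11.85. *Ctsg*, *S100a8* (2.14 ± 1.56) and *S100a9* (2.55 ± 1.79), the last a pair of calcium-binding proteins of neutrophils, met both criteria, as did 2.78% of all probes in the higher direction. The genotypes overlapped for *S100a8* and *S100a9*, which in *p85α−/−* replicate 2 stood at 7.03 and 7.93, below WT replicates 1 and 3. *Ltf* (lactoferrin) had the lowest mean of the list (−0.55). The median log2 ratio of the neutrophil list was 1.33, 0.19 and 1.47 on arrays 1, 2 and 3, beside 0.49, 0.83 and 0.090 for the granule proteases. The part of these cells in any protease value was not tested.

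The mean log2 ratio of most probes kept its sign under other processing of the same scanner files. The exceptions were *Mcpt4* under median centring, above, and the replicates left out for *Mcpt1*, *Tpsb2* and the dimmer *Cma1* probe. The authors' table of processed ratios gave other signs for *Mcpt2* (1.15), both *Mcpt4* probes (0.34 and 1.05), *Tpsb2* (−1.31) and *Mcpt8* (−0.28). In that table the 10 probes carry their own scanner ratio for replicate 1 in 10 of 10 cases and for replicates 2 and 3 in 0 of 10 (tolerance 1.5e-05 on the log10 scale), and over all 40929 probes with 1 spot in 190 and 226 cases for replicates 2 and 3. Regardless of probe, 40687 and 40691 of the table's values for replicates 2 and 3 were found, matched one to one, among the scanner's ratios of the same array, against 15451 to 15777 among those of another array. The table thus held mostly the right array's ratios on other probes, and its signs for these genes are not those of the genes' own probes.

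**Figure D4:**
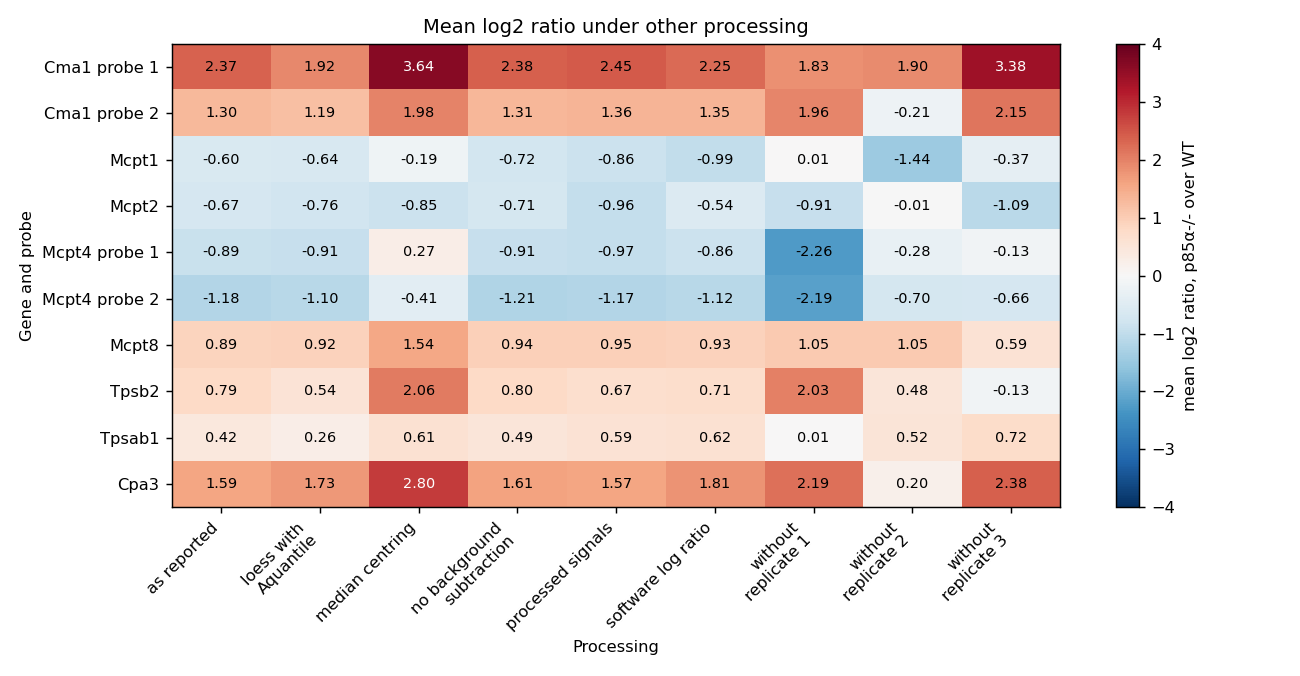
Mean log2 ratio of *p85α−/−* over WT (color and printed value) for each probe (rows) as reported and under 8 other ways of processing the scanner files or choosing the arrays (columns). *Cma1* probe 1, *Tpsab1*, *Mcpt8* and *Cpa3* stay above 0 in every column, and *Mcpt2* and *Mcpt4* probe 2 stay below it. Leaving out a replicate turns the sign of *Mcpt1*, *Tpsb2* and *Cma1* probe 2.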

How the data were processed

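Gene expression was measured on 3 Agilent whole-mouse arrays with 2 dyes, all on 1 slide and 1 scan. The authors deposited scanner intensity values per spot (mean signal and median local background, made with Agilent Feature Extraction 9.5.1.1) without normalization, beside intensity values it had corrected for background and dye. The authors also deposited the software's log10 ratio (red over green), and a table with a log10 ratio for each probe on each array, which was only an alternative here.

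Background was corrected with normexp (offset 50), the 6 channels were quantile normalized on the log2 scale, and control and outlier spots were left out (R 4.3.3, limma 3.58.1). Log2 ratios per array were tested against 0 with limma (eBayes) and Benjamini-Hochberg adjustment over 41157 probes. The arrays pair the cultures. The number of arrays limits precision. Of a gene's probes, the brightest is reported, and probe genes are those of the array's annotation, of which 55.7% had an accession in RefSeq. The members and gene lists were chosen with earlier results of these data known. Named were the 8 genes, *Pik3r1*, the highest, the lowest and every gene past the criteria of each list, and the 5 probes most like *Cpa3*, not all of which are reported here. *Gzmb*, *Tpsg1*, *Prss34*, *Mpo*, *Tph1*, *Gata2* and *Slc18a2* were also named, some after their values were seen. Promoters were searched with Python 3.11.15 and aligned with Biopython 1.88. The procedure was tested on simulated data. Alternatives were 15 in number, and the closing section gives their effect.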

Additional observations from a re-analysis of the deposited data

How the results depend on the processing

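The count of probes with limma's adjusted p under 0.05 stayed at 0 in each of the alternatives that refitted all probes. The number of probes at least 1.5-fold apart with an unadjusted p under 0.05, 1829 as reported, was 1125 by the methods' t-test, unpaired, 819 by its paired form, and 1557 to 3165 with a replicate left out (3165 without replicate 2). With median centring it was 2692, and 91.1% of the probes past these criteria were higher in *p85α−/−*, against 62.6% as reported and 47.5% without replicate 2.

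Of the 8 granule proteases, 0 met the criteria with loess and Aquantile, the deposited table, the methods' t-test (unpaired or paired) or a gene's probes averaged, 3 did with median centring (2692 of 41157 probes), and 1 to 2 with a replicate left out. The median of the 8 was 1.07 with median centring and 0.23 to 0.53 with a replicate left out. The genes higher on every array were 0 in the deposited table and 3 to 4 without a replicate. Fewer arrays had to share the sign without a replicate, and the 12.5% of all probes given above holds for 3 arrays only. *Mcpt4* probe 1 turned to 0.27 with median centring and 0.34 in the deposited table, which holds other probes' ratios for replicates 2 and 3 (190 and 226 of 40929 on their own probe) and in which *Mcpt4* probe 2 (1.05), *Mcpt2* (1.15), *Tpsb2* (−1.31) and *Mcpt8* (−0.28) also turned. With a replicate left out, *Mcpt1* ran from −1.44 (without replicate 2) to 0.014 (without replicate 1), *Cma1* probe 2 from −0.21 (without replicate 2) to 2.15, and *Tpsb2* from −0.13 (without replicate 3) to 2.03.

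For the other proteases, the median (0.37) was 0.13 with loess and Aquantile, 0.98 with median centring, 0.69 with processed signals, 0.65 with the software's log ratio, 0.79 without dim probes and 0.11 to 0.49 with a replicate left out. Genes past the criteria (2) were 1 with processed signals, 0 in the deposited table, 1 without dim probes and 1 to 5 with a replicate left out. For storage and regulators, the median (0.65) was 1.12 with median centring, 1.15 in the deposited table and 0.48 to 1.03 with a replicate left out. Genes past the criteria (1) were 2 with median centring or without dim probes, and 0 with processed signals, the deposited table or the paired t-test. The median of the 15 mast cell genes (1.47) ran from 0.58 in the deposited table to 2.07 with median centring. The cause was not tested. *Mcpt2* gave no value without dim probes.

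Limma without the pairing by array (no replicate block) kept *Cma1* past the criteria (unadjusted p = 0.020 in limma's test) and changed no other call among the 8 genes. Dye swaps were lacking, and 3 arrays of amplified cDNA limit every value.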

Other observations

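Eosinophil and macrophage genes were also read on the arrays. Of 7 eosinophil genes with a probe, *Prg3*, a granule protein related to major basic protein, was lower in *p85α−/−* on every array, at 12.23, 12.58 and 11.96 in WT and 10.94, 11.43 and 11.20 in *p85α−/−* (mean log2 ratio −1.07 ± 0.27, SD, n = 3), and met both criteria, with adjusted p = 0.908 in limma's fit. *Ccr3*, the eotaxin receptor, had the highest mean of that list (1.53 ± 2.49), from array 1 alone. Of 10 macrophage genes, 0 met the criteria (2.78% of all probes did in the higher and 1.66% in the lower direction), with *Mrc1*, the mannose receptor, highest (0.91 ± 1.45) and *Adgre1*, which encodes F4/80, lowest (−1.39 ± 1.12). The summed intensities overlapped between the genotypes for both lists, at 6260 to 7935 in WT and 4677 to 9889 in *p85α−/−* for eosinophil genes, and at 3533 to 8078 and 3651 to 5298 for macrophage genes.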
